A study of Mus musculus with 48 samples.

Results

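Il34, Csf1 and Csf1r encode the cytokines interleukin-34 and colony stimulating factor 1 and the receptor that both of them bind. They are 3 of the 13174 genes tested, and each was read from its probe set of highest mean over the 48 arrays among the probe sets that carry its symbol alone. RNA of whole kidneys was measured on Affymetrix mouse arrays, with 1 array per animal, in FVB mice, whose kidneys are predisposed to lesions after loss of renal mass, and in C57BL/6 mice (written B6), which are not. At 9 weeks of age each animal underwent subtotal nephrectomy (written Nx), which leaves a remnant of renal tissue, or a sham operation. The kidneys were taken 2, 28 or 53 days later. This gave FVB sham and FVB Nx groups at day 2, day 28 and day 53 and the same 6 groups in B6, which makes 12 groups of 4 animals. No group carries a transgene or receives an agent per the labels, and animals are named by the mouse number of their label.

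CSF1R is a receptor tyrosine kinase of monocytes, macrophages and their precursors, and signalling through it sustains the survival, division and differentiation of these cells. CSF1 is made by many stromal, endothelial and epithelial cells, whereas IL-34 is best known from the skin and brain, where it maintains Langerhans cells and microglia. In injured kidney, tubular epithelial cells are known to make both ligands, and resident and recruited macrophages carry the receptor.

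All values are deposited log2 signals, and a level is not compared between genes because each probe set has its own affinity. Changes were estimated with limma over all 48 arrays and called at a Benjamini-Hochberg adjusted p under 0.05 over all 13174 genes. Shares over all genes are of this fit. Counts of listed genes under other fits stand without such a share and are not read as results about the lists. A value of 2.28, the 40th percentile of all values, served as the filter on low signal, and a gene was tested when at least 4 arrays exceeded it. Csf1 and Csf1r exceeded it on all 48 arrays. Il34 exceeded it on 12 arrays, all of them Nx: the 4 FVB animals of day 53 and 8 animals of the other Nx groups, so that it passed the filter on Nx arrays alone.

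The markers of whole kidney were abundant. The mean of 5 proximal tubule genes per array lay between 12.71 and 13.13 in sham kidneys and between 11.41 and 13.01 in Nx kidneys. Transcripts of exocrine pancreas were present on many arrays: the mean of 9 pancreatic genes, between 3.34 and 3.56 on the 21 sham arrays without them, exceeded 5 in 17 Nx kidneys of 24 and in 3 sham kidneys of 24, reaching 15.04. Among the Nx groups, 3 of 4 arrays of each exceeded 5 except in B6 at day 53, where 2 did. The 3 sham arrays over 5 were all of day 28, FVB mice 1 and 4 and B6 mouse 1. FVB sham mouse 4 of day 28, with a pancreatic mean of 11.56, also had the highest Csf1 (7.16) and Csf1r (11.04) of its group. The part of these transcripts in the sham values of day 28 was not tested. Without the arrays over 5, 1 Nx animal was left in 5 groups and 2 in the sixth, and values from that reduced set are given where they changed a call. The difference between the 3′ and 5′ probe sets of Gapdh, a measure of RNA integrity, was 0.30 in FVB Nx and 0.16 in FVB sham kidneys at day 2, and 0.31 and 0.14 in B6. The same measure for Actb was lower in Nx in most comparisons. It was 2.21 against 2.40 in FVB at day 2, 1.91 against 2.17 in FVB at day 53 and 2.19 against 2.21 in B6 at day 2. In B6 at day 53 it was higher in Nx, with 2.25 against 2.18. The part of RNA integrity in the results was not tested.

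**Figure D1:**
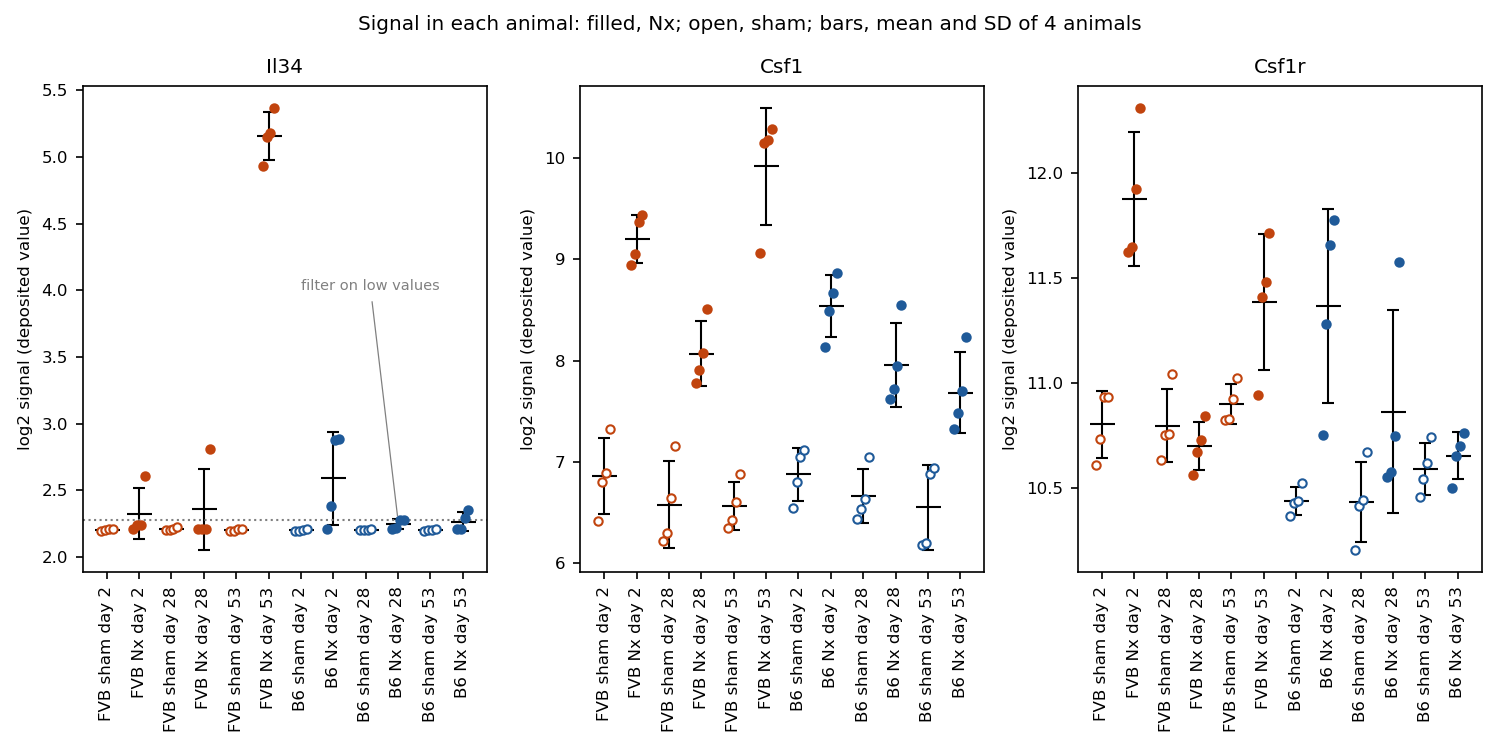
Deposited log2 signal (y axis) of Il34, Csf1 and Csf1r in each of the 48 animals by group (x axis), with filled points for Nx, open points for sham, and bars for the mean and SD of 4 animals. Il34 stands clear of the filter on low values (dotted line) on all 4 FVB Nx arrays of day 53, Csf1 is above sham in every Nx group, and Csf1r is above sham without overlap at day 2 only.

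Il34 was at the bottom of the measured range in sham kidneys and in most Nx kidneys, and it was clearly detected in a single group, FVB at 53 days after nephrectomy. In that group the 4 animals had log2 signals of 4.94, 5.15, 5.18 and 5.37. The 24 sham kidneys lay between 2.20 and 2.22, and the lowest value that the table holds is 2.20. No FVB Nx value of day 53 came near a sham value or a value of any other group, the highest of which was 2.89. The group mean was 5.16 ± 0.18 (SD, n = 4), at least 7.36-fold higher than sham, a lower bound taken against the filter value since all 4 sham animals were below it. The fitted difference was 2.96 (SE 0.11, adjusted p = 9.36e-23, limma). That SE pools sham groups at the floor (SD 0.0047 in FVB at day 53) with groups such as B6 Nx at day 2 (SD 0.35). Here and in the other Il34 contrasts the SE, p and interval therefore do not measure the spread between sham animals. Of all genes tested in the FVB contrast of day 53, 25.9% were called higher and 27.8% lower, and Il34, Csf1 and Csf1r were all 3 called higher.

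Earlier after surgery the Il34 signal in FVB remnants rested on single animals. At day 2, mouse 2 had 2.61 and the other 3 Nx mice lay between 2.21 and 2.24. At day 28, mouse 7 had 2.81 and the other 3 were at 2.21. The differences from sham were 0.12 at day 2 (95% interval -0.10 to 0.34, limma adjusted p = 0.367) and 0.15 at day 28 (95% interval -0.07 to 0.37, adjusted p = 0.393). In B6, Il34 was higher than sham at day 2, with values of 2.21, 2.38, 2.88 and 2.89 in Nx against 2.20 to 2.21 in sham, so that 3 of 4 Nx animals exceeded sham and 1 did not. The difference was 0.39 (SE 0.11, adjusted p = 0.00335, limma), and the call was lost when the fit used only the 8 arrays of this comparison (adjusted p = 0.0906). At day 28 and day 53 the B6 Nx values ran from 2.21 to 2.28 and from 2.21 to 2.35, with differences of 0.04 (95% interval -0.18 to 0.26) and 0.06 (95% interval -0.16 to 0.28).

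The strain difference in Il34 was tested at each day as the Nx effect in FVB minus that in B6. It was 2.89 at day 53 (SE 0.15, adjusted p = 5.17e-17, limma). It was -0.27 at day 2 (95% interval -0.58 to 0.04, adjusted p = 0.348) and 0.11 at day 28 (95% interval -0.20 to 0.42). Within FVB, the Nx effect rose by 2.81 from day 28 to day 53 (SE 0.15, adjusted p = 1.52e-16), and these contrasts share the day 53 arrays with the surgery contrast. In the order of the 12 group means, FVB Nx at day 53 came first by a gap of 2.57, and every later pair of neighbours had overlapping ranges. The next groups were B6 Nx at day 2 with 2.59 ± 0.35, FVB Nx at day 28 with 2.36 ± 0.30 and FVB Nx at day 2 with 2.32 ± 0.19.

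Csf1, the other ligand, rose after nephrectomy in both strains at every day, and most of all in FVB at day 53. The 24 sham values lay between 6.18 and 7.33, and of the 24 Nx values the lowest, 7.33 in B6 at day 53, was the single one within that range. Within each strain and day no Nx value overlapped a sham value. The promoter of Csf1 is shown because this gene, read from its brightest probe set, was called higher in all 6 comparisons. The NF-kB motif was marked after adhesion molecules known as NF-kB targets were seen among its closest companions, described further on. The part of NF-kB in the Csf1 values was not tested. The RefSeq window of GRCm38.p6 at chr3:107760420-107760719, minus strand, runs from 250 bases before to 50 bases after the start site and is written 5′ to 3′ along the gene, with capitals for a match to the NF-kB consensus:

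Csf1 promoter: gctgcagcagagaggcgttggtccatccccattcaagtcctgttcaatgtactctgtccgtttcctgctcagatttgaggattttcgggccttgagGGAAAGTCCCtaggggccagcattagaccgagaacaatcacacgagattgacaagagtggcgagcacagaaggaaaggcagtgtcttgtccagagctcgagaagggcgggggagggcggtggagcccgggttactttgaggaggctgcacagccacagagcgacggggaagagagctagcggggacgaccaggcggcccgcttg

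The capitals match the NF-kB consensus on the opposite strand and lie from -154 to -145 relative to the start site, and 8.46% of the 32851 windows of the same length in the table hold such a match on either strand. The window also holds the GC box GGGCGG at -51 to -46 and at -41 to -36, not overlapping the capitals, and 35.7% of all windows hold at least 1. No match to TGANTCA, the AP-1 motif, or to GAGGAA, a core of PU.1 sites, was found on either strand of this window, against 7.81% and 28.3% of all windows. A match of letters describes the window and says nothing of binding.

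At day 2, the FVB Nx kidneys had Csf1 signals of 8.94, 9.05, 9.37 and 9.44, and the sham kidneys 6.42, 6.80, 6.90 and 7.33. The Nx animals stood close together, and the lowest of them was far above the highest sham animal. Csf1 was 5.06-fold higher (log2 difference 2.34, SE 0.25, limma adjusted p = 4.14e-10). In this contrast 24.8% of all genes were called higher and 30.0% lower, and 2 of the 3 genes, Csf1 and Csf1r, were among the higher. In B6 at day 2 the Nx kidneys had 8.14, 8.49, 8.67 and 8.86 against 6.55, 6.80, 7.05 and 7.12 in sham. Csf1 was 3.16-fold higher there (log2 difference 1.66, SE 0.25, adjusted p = 1.04e-06), in a contrast with 20.2% of all genes called higher and 24.4% lower, where all 3 genes were called higher.

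At day 28 Csf1 was again above sham in both strains. FVB Nx kidneys had 7.78, 7.91, 8.07 and 8.51, and sham kidneys 6.22, 6.30, 6.64 and 7.16, a 2.81-fold difference (log2 1.49, SE 0.25, limma adjusted p = 4.2e-05). B6 Nx kidneys had 7.62, 7.72, 7.95 and 8.55, and sham kidneys 6.44, 6.54, 6.63 and 7.05, a 2.45-fold difference (log2 1.29, SE 0.25, adjusted p = 0.000229). Csf1 alone of the 3 genes was called at this day, in contrasts that called 7.35% of all genes higher and 8.81% lower in FVB and 9.85% higher and 9.14% lower in B6.

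By day 53 the strains had parted. FVB Nx kidneys had Csf1 signals of 9.06, 10.14, 10.18 and 10.28 against 6.35, 6.43, 6.60 and 6.88 in sham, with mouse 7 more than 1 below the other 3 Nx animals. This is 10.2-fold (log2 difference 3.35, SE 0.25, limma adjusted p = 5.24e-14). B6 Nx kidneys had 7.33, 7.48, 7.70 and 8.23 against 6.18, 6.20, 6.88 and 6.94 in sham, which is 2.19-fold (log2 difference 1.13, SE 0.25, adjusted p = 0.00135). Csf1 was again the single one of the 3 genes called in B6 at this day, where 8.03% of all genes were called higher and 6.68% lower.

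The Nx effect on Csf1 was larger in FVB than in B6 at day 53 by 2.22 (SE 0.36, limma adjusted p = 9.81e-06), in a contrast that called 29.1% of all genes in either direction and 2 of the 3 genes, Il34 and Csf1. At day 2 the difference between the strains was 0.68 (95% interval -0.04 to 1.40, adjusted p = 0.297), and at day 28 it was 0.20 (95% interval -0.53 to 0.92, adjusted p = 1). These contrasts called 4.41% and 0.129% of all genes and none of the 3 genes. At an unadjusted p under 0.05 limma gave 0 of the 3 at day 2 and 1, Csf1r, at day 28. No share over all genes was taken at that unadjusted threshold, so these counts are not read as results. In sham kidneys Csf1 did not pass the test between the strains (FVB minus B6 -0.03, 95% interval -0.32 to 0.26).

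Over time within FVB, the Nx effect on Csf1 changed by -0.85 from day 2 to day 28 (95% interval -1.57 to -0.13, limma adjusted p = 0.0761) and rose by 1.86 from day 28 to day 53 (SE 0.36, adjusted p = 0.000127). The first of these passed the threshold when FVB Nx mouse 7 of day 28 (-0.997, adjusted p = 0.0399) or FVB sham mouse 4 of day 2 (-1.005, adjusted p = 0.0414) was left out. The first contrast called 25.2% of all genes, and of the 3 genes Csf1r, and the second called 26.3%, and of the 3 genes Il34 and Csf1. In B6 the same changes in Csf1 were -0.37 (95% interval -1.09 to 0.36) and -0.16 (95% interval -0.88 to 0.56). The B6 contrast of day 28 against day 2 called 8.86% of all genes and none of the 3. Of the 3, 1, Il34, had an unadjusted limma p under 0.05, with no share over all genes taken at that threshold. The B6 contrast of day 53 against day 28 called 0 of the 13174 genes (0%) with limma. There, 405 genes had an unadjusted p under 0.05, Il34, Csf1 and Csf1r not among them, and 1229 were called without the arrays with pancreatic transcripts.

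**Figure D2:**
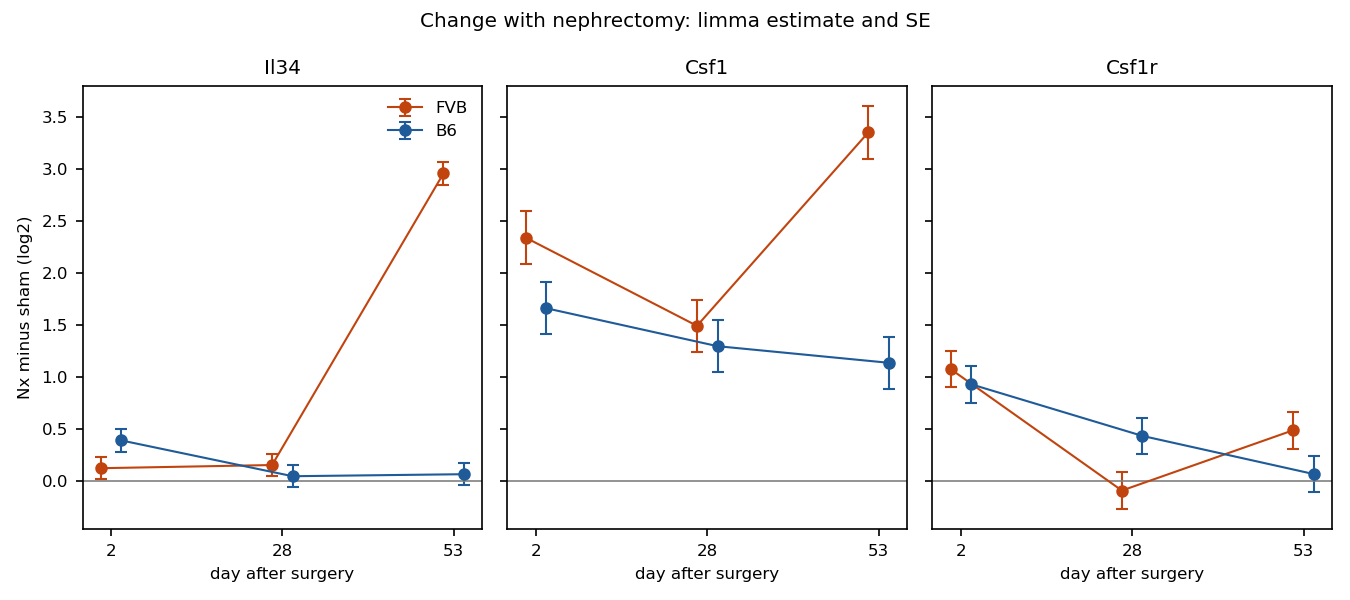
Nx minus sham on the log2 scale (y axis) by day after surgery (x axis) for Il34, Csf1 and Csf1r in FVB and B6, as limma estimates with SE, 4 animals a group. The strains separate at day 53 for Il34 (2.96 in FVB, 0.06 in B6) and Csf1 (3.35 and 1.13), while Csf1r has its highest values at day 2 (1.07 and 0.93).

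The group means of Csf1 fell into an upper and a lower set with no overlap between the sixth and seventh place, where B6 Nx at day 53 (7.69 ± 0.40, SD, n = 4) stood above B6 sham at day 2 (6.88 ± 0.26). FVB Nx at day 53 (9.92 ± 0.57) and FVB Nx at day 2 (9.20 ± 0.24) led, and their ranges overlapped through mouse 7 of day 53. FVB Nx at day 2 did not overlap B6 Nx at day 2 (8.54 ± 0.31). From there to B6 Nx at day 53 each neighbour overlapped the next, as did all 6 sham groups, whose means lay between 6.55 and 6.88.

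Csf1 is covered by 3 further probe sets of lower mean signal, and they did not all behave alike. The probe set 1448914_a_at rose by 1.33 in FVB at day 2 (limma adjusted p = 6.41e-06), by 1.14 in B6 at day 2 (adjusted p = 0.000101) and by 2.77 in FVB at day 53 (adjusted p = 8.07e-13). It did not pass the test in FVB at day 28 (0.40, adjusted p = 0.265), in B6 at day 28 (0.43, adjusted p = 0.205) or in B6 at day 53 (0.43, adjusted p = 0.225). Its strain difference at day 53 was 2.34 (adjusted p = 1.2e-06). The probe sets 1425155_x_at and 1425154_a_at had means of 3.36 and 2.31 over the 48 arrays, the latter barely above the filter value with a highest value of 2.60. At day 2, 1425155_x_at differed by 0.18 in FVB and 0.03 in B6, neither past the threshold, and 1425154_a_at differed by at most 0.12 in all 6 comparisons. In FVB at day 53, 1425155_x_at rose by 0.77 (adjusted p = 8.8e-05), and its strain difference was 0.70 (adjusted p = 0.0174). The day 53 difference between the strains was thus called with 3 of the 4 probe sets, and the increases of day 28 and of B6 at day 53 with the brightest alone.

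**Figure D3:**
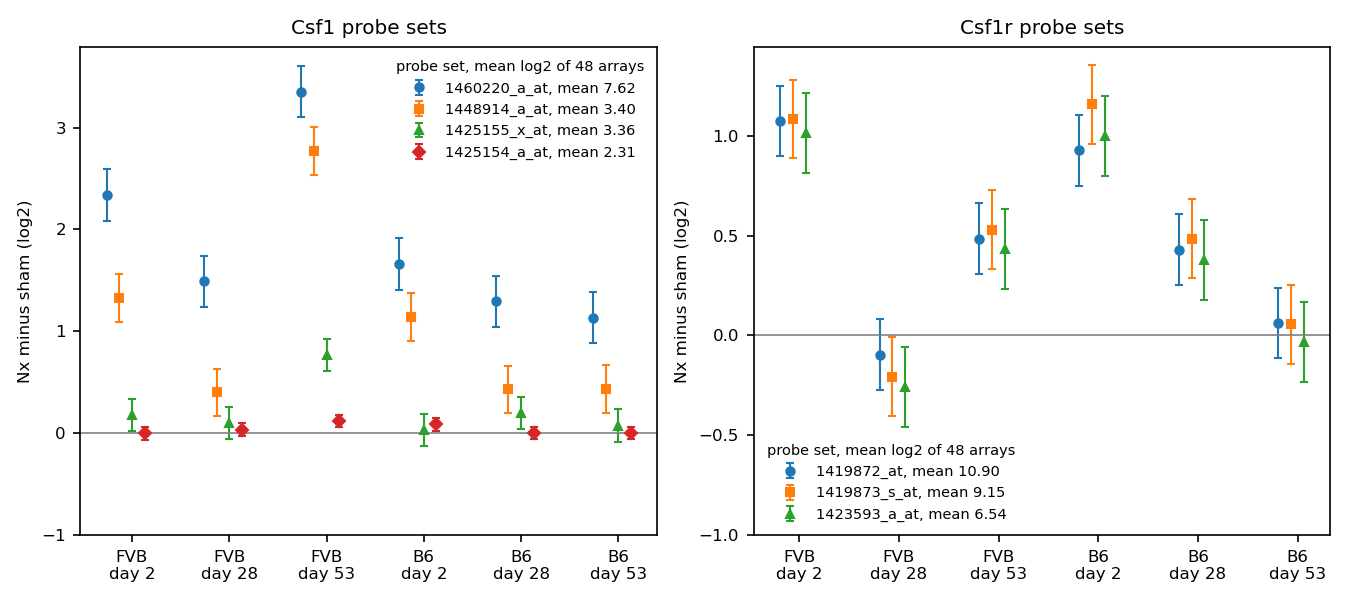
Nx minus sham on the log2 scale (y axis) in the 6 strain and day comparisons (x axis) for each probe set of Csf1 (left) and Csf1r (right), as limma estimates with SE; the legend gives each probe set's mean over the 48 arrays. The 3 Csf1r probe sets lie together in each comparison, whereas the Csf1 probe sets spread, from 3.35 for the brightest to 0.12 for the dimmest in FVB at day 53.

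Csf1r, the receptor, rose at day 2 in both strains, and its later changes were small. In bulk kidney RNA a change in the number of cells that carry a transcript and a change in its amount per cell cannot be told apart. At day 2 FVB Nx kidneys had log2 signals of 11.62, 11.65, 11.92 and 12.31, and sham kidneys 10.61, 10.73, 10.93 and 10.93. B6 Nx kidneys had 10.75, 11.28, 11.65 and 11.78, and sham kidneys 10.36, 10.43, 10.44 and 10.52. Neither strain had an Nx animal within its sham range, though B6 mouse 9 came close. Csf1r was 2.11-fold higher in FVB (log2 difference 1.07, SE 0.18, limma adjusted p = 2.36e-06) and 1.90-fold higher in B6 (0.93, SE 0.18, adjusted p = 4.21e-05). The difference between the strains was 0.15 (95% interval -0.36 to 0.65, adjusted p = 0.812).

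At day 28 Csf1r in FVB Nx kidneys overlapped sham. The Nx animals had 10.56, 10.67, 10.73 and 10.84 and the sham animals 10.63, 10.75, 10.76 and 11.04, a difference of -0.10 (95% interval -0.45 to 0.26, limma adjusted p = 0.813). The fall of the Nx effect from day 2 was -1.17 (SE 0.25, adjusted p = 0.000587). In B6 at day 28 a single animal stood out: mouse 3 had 11.57, the other Nx animals 10.55, 10.58 and 10.75, and sham animals 10.21 to 10.67. The difference was 0.43 (95% interval 0.07 to 0.79, adjusted p = 0.0847), 0.19 without mouse 3, and past the threshold without mouse 4 (0.53, adjusted p = 0.0453) or mouse 9 (0.53, adjusted p = 0.0448). Mouse 3 was also the single Nx animal of that group without pancreatic transcripts, with a pancreatic mean of 3.54 against 13.12 to 13.47 in the others, so the reduced set gave 1.15 (adjusted p = 1.04e-05) from 1 Nx animal.

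At day 53 Csf1r in FVB Nx kidneys was 10.94, 11.41, 11.48 and 11.71 against 10.82, 10.83, 10.92 and 11.02 in sham. Mouse 10 lay within the sham range and the other 3 lay above it. The gene was called higher, by 1.40-fold (log2 difference 0.49, SE 0.18, limma adjusted p = 0.0193), and this call was not stable. It was lost without Nx mouse 8 (0.38, adjusted p = 0.0946), with 1 median for all arrays (0.32, adjusted p = 0.0823) and with the probe set 1423593_a_at (0.43, adjusted p = 0.0653). Mouse 10, the lowest, was also the single animal of the group with a pancreatic mean under 5, so the reduced set gave 0.04 (adjusted p = 0.90). With the pancreatic mean as a covariate over all arrays the difference was 0.52 (adjusted p = 0.0165). In B6 the Nx values of 10.50, 10.65, 10.70 and 10.76 overlapped the sham values of 10.45 to 10.74, and the difference was 0.06 (95% interval -0.30 to 0.42). The strain difference at day 53 did not pass the test (0.42, 95% interval -0.08 to 0.93, adjusted p = 0.22).

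In sham kidneys Csf1r was 1.27-fold higher in FVB than in B6 (log2 difference 0.35, SE 0.10, limma adjusted p = 0.00738). That contrast called 32.5% of all genes, and Csf1r was the 1 of the 3 genes among them. FVB and B6 sham values did not overlap at day 2 or day 53 and overlapped at day 28, and the other probe sets gave 0.50 and 0.38. Of 18 measured monocyte and macrophage genes, 8 were called lower in FVB than in B6 sham kidneys and the other 10 did not pass the test, with a median of -0.36, beside 0.01 over all genes. Over the 12 group means every pair of neighbours had overlapping ranges, from FVB Nx at day 2 (11.88 ± 0.32, SD, n = 4), FVB Nx at day 53 (11.38 ± 0.32) and B6 Nx at day 2 (11.36 ± 0.46) down to B6 sham at day 28 (10.43 ± 0.19).

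Csf1r is a marker of macrophages, and other markers of these cells were read beside it. The monocyte and macrophage list held 18 measured genes of 19, Ly6c2 not being listed under its symbol. In FVB, 17 were called higher at day 2, 12 at day 28 and 17 at day 53, where 24.8%, 7.35% and 25.9% of all genes were called higher, with median differences of 3.41, 2.16 and 3.99, beside medians over all genes within 0.04 of 0. In B6, 16, 15 and 15 were called higher, against 20.2%, 9.85% and 8.03% of all genes, with medians of 2.66, 2.35 and 2.09. Adgre1, an adhesion receptor of the macrophage surface, rose by 3.32, 2.51 and 3.62 at the 3 days in FVB and by 1.91, 2.38 and 2.04 in B6. Cd68, a lysosomal glycoprotein of phagocytes, rose by 5.86, 4.10 and 5.42 in FVB and by 4.75, 4.55 and 3.61 in B6, and C1qa, a chain of complement C1q, rose by 3.37, 2.04 and 4.08 and by 2.40, 2.31 and 2.16. Mertk, an efferocytosis receptor, was the 1 gene of the list called lower, by -0.74 in FVB at day 53.

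At day 28 in FVB the mean of the 18 genes lay between 7.25 and 8.14 in Nx kidneys, above the sham range of 5.45 to 6.05, while Csf1r overlapped sham. Without the arrays with pancreatic transcripts, which left 1 Nx animal there, fewer of the 18 were called. In B6 at day 28 the list mean was 9.68 in mouse 3, the animal with the highest Csf1r, and 7.76 to 7.98 in the other Nx animals, and 13 genes were called higher without that animal. Across the 24 Nx arrays, which form 6 groups of 4, Csf1r and the list mean had r = 0.95, and r = 0.90 after each group's mean was subtracted. Across the 24 sham arrays r was -0.27 with no group mean subtracted. No value after subtraction was taken there, so -0.27 is not set against the 0.90 of the Nx arrays. The strains differed in sham kidneys, with Csf1r higher and 8 of the 18 genes lower in FVB. This r mixes that strain difference with differences between animals of a group. The sham animal highest in Csf1r was also highest in the list mean in FVB at day 28 and in B6 at days 2 and 53. It was not in the other sham groups. For Csf1 and the list mean r was 0.74 over the Nx arrays, 0.63 after subtraction and 0.60 over the sham arrays. These correlations describe arrays that share group, tissue and dilution by other tissue, and carry no test.

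**Figure D4:**
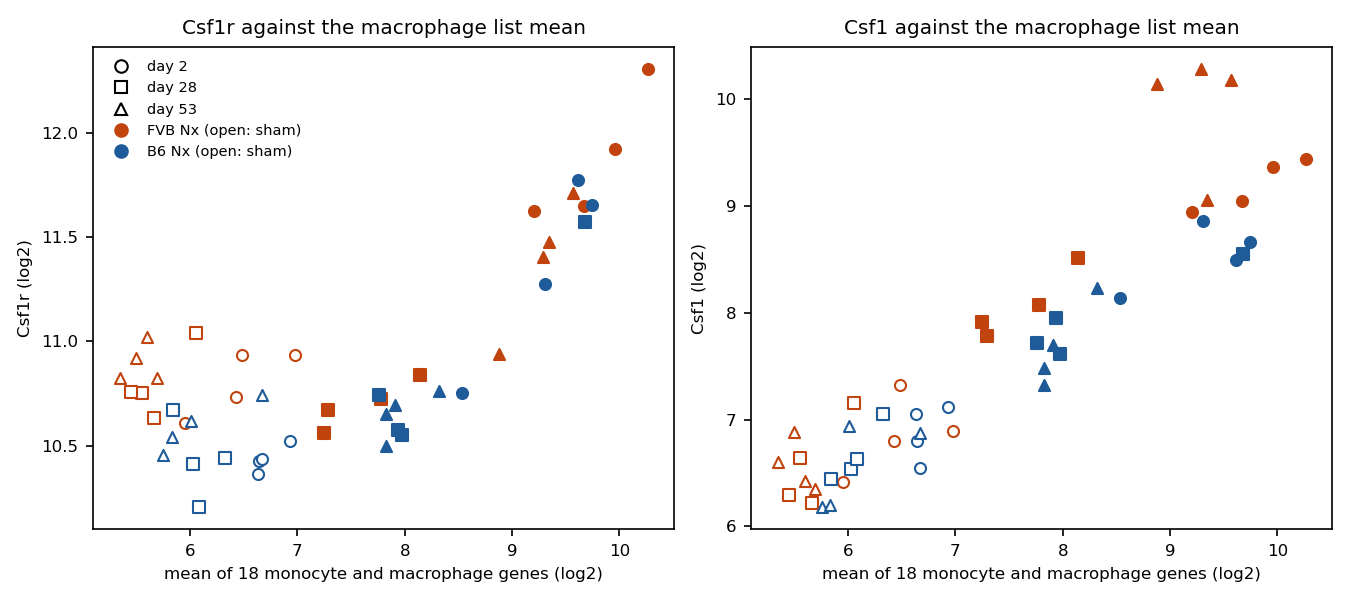
Log2 signal of Csf1r (left) and Csf1 (right) on the y axis against the mean of 18 monocyte and macrophage genes on the x axis (log2) in the 48 animals; colour gives the strain, shape the day, filled points Nx and open points sham. For Csf1r, r with the list mean is 0.95 among Nx animals and -0.27 among sham animals, the latter over strains whose sham levels of both differed. Neither r has group means subtracted, and r within the sham groups was not taken. FVB Nx animals of day 28 have list means of 7.25 to 8.14. Their Csf1r values of 10.56 to 10.84 overlap those of FVB sham animals of that day (10.63 to 11.04).

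Single animals stood high or low for several of these measures. In FVB at day 2 mouse 2, the 1 Nx animal with Il34 above the filter value (2.61), also had the highest Csf1 (9.44), Csf1r (12.31) and macrophage list mean (10.26) of the 4. In FVB at day 28 mouse 7, again the 1 Nx animal with Il34 above that value (2.81), had the highest Csf1 (8.51), Csf1r (10.84) and list mean (8.14). In B6 at day 2 mouse 9, the 1 Nx animal with Il34 not above it, had the lowest Csf1 (8.14), Csf1r (10.75) and list mean (8.53). In B6 mouse 3 at day 28 and mouse 1 at day 53 had the highest Csf1 and Csf1r, and no order is given there for Il34, whose values lay at or near the filter value. In FVB at day 53 the measures parted. Mouse 7 had the lowest Csf1 (9.06), with Csf1r of 11.48 and a list mean of 9.34. Mouse 10 had the lowest Il34 (4.94), Csf1r (10.94) and list mean (8.88), with Csf1 of 10.14. After group means were subtracted, r over the 24 Nx arrays was 0.48 for Csf1 and Csf1r. The mean of 9 genes of injured tubule, among them Havcr1 (KIM-1) and Lcn2 (lipocalin 2), had r = 0.85 with Csf1 over the Nx arrays, and 0.55 after group means were subtracted.

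Genes of injured tubule, 9 measured of 10 listed, were read beside the ligands. In FVB 8 of 9 were called higher at day 2, 5 at day 28 and 9 at day 53, beside 24.8%, 7.35% and 25.9% of all genes, and in B6 9, 8 and 7, beside 20.2%, 9.85% and 8.03%. Without the arrays with pancreatic transcripts, which left 1 Nx animal in each strain at day 28, the day 28 counts were lower in both. At day 53 Havcr1, a tubular phosphatidylserine receptor shed after injury, rose by 6.48 in FVB and 3.27 in B6, and the strain difference was 3.20 (SE 0.79, limma adjusted p = 0.00179). Lcn2, an iron-carrier binding protein released by stressed tubules, rose by 8.26 and 4.44, with a strain difference of 3.82 (SE 0.62, adjusted p = 1.22e-05). Krt20, a keratin of damaged epithelium, rose by 5.25 in FVB and had 0.54 in B6 (adjusted p = 0.0828), with a strain difference of 4.70 (SE 0.30, adjusted p = 2.2e-14). Of the 9 genes, 8 were called higher in FVB than B6 in that contrast, where 29.1% of all genes were called in either direction.

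Other leukocytes were measured beside these. Of 4 measured neutrophil genes, 4 were called higher in FVB at day 2 and 2 at day 53, and 3 in B6 at day 2, where 24.8%, 25.9% and 20.2% of all genes were called higher. S100a8 and S100a9, the calprotectin chains, rose by 5.05 and 5.54 in FVB at day 2, by 3.38 and 3.49 in FVB at day 53 and by 4.05 and 4.12 in B6 at day 2. Both calls of FVB at day 53 were lost without the arrays with pancreatic transcripts, where 1 Nx animal was left (-0.26 and 0.033), and over only the arrays of the comparison (adjusted p = 0.0897 and 0.0670, limma). Mmp8, a neutrophil collagenase, was at or under the filter value on all arrays of 9 groups. Of 2 measured lymphocyte genes Cd3d, a chain of the T cell receptor complex, was called higher in FVB at day 53 (1.09) and in B6 at day 28 (1.47) and day 53 (1.31). The FVB call was lost under quantile normalisation (0.95, limma adjusted p = 0.0641), with 1 median for all arrays (0.93, adjusted p = 0.0650) and without the arrays with pancreatic transcripts (0.88, adjusted p = 0.0660). Both B6 calls were lost over only the arrays of the comparison (adjusted p = 0.289 and 0.0729), and that of day 28 also without mouse 3 (0.68, adjusted p = 0.241). The part of these cells in the values of Il34, Csf1 and Csf1r was not tested.

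Among partners of the pathway, the proteins that bind IL-34 or release the receptor from the cell surface came first. Of 4 listed genes, 3 were measured, since Ptprz1, a phosphatase that binds IL-34, did not pass the filter on low signal. Sdc1, the heparan sulfate proteoglycan syndecan-1 that binds IL-34, rose in all 6 comparisons, by 2.34, 1.09 and 2.11 in FVB and 1.98, 1.24 and 0.86 in B6 at days 2, 28 and 53. Adam17, the protease that sheds CSF1R, rose by 0.92, 0.32 and 0.59 in FVB and by 0.61 and 0.53 in B6 at days 2 and 28, with 0.21 at day 53 (adjusted p = 0.24). Its FVB call of day 28 was lost with 1 median for all arrays (0.27, limma adjusted p = 0.0628), over only the arrays of the comparison (adjusted p = 0.0556) and without the arrays with pancreatic transcripts (0.16, adjusted p = 0.608), and its B6 call of day 28 over only the arrays of the comparison. Adam10, a related protease, rose by 0.61 and 0.67 in FVB at days 2 and 53 and by 0.49 in B6 at day 2. At day 53 the Nx effect was larger in FVB for Sdc1 (1.26, SE 0.24, limma adjusted p = 0.000116) and Adam10 (0.57, SE 0.12, adjusted p = 0.000377), and that of Adam17 did not pass the test (0.38, adjusted p = 0.067).

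Of 8 listed transcription factors that act on Csf1r, 7 were measured. In FVB 6, 4 and 6 were called higher at days 2, 28 and 53, beside 24.8%, 7.35% and 25.9% of all genes, and in B6 4, 4 and 2, beside 20.2%, 9.85% and 8.03%. The B6 count of day 28 was 1 over only the arrays of the comparison. Without the arrays with pancreatic transcripts the counts were lower in FVB at day 28, with 1 Nx animal left, and in B6 at day 53, with 2 left. Runx1, which binds the intronic enhancer of Csf1r, rose in all 6 comparisons, by 4.67, 2.50 and 4.83 in FVB and 4.41, 3.24 and 2.80 in B6, also where Csf1r did not. Spi1, which encodes PU.1, the factor that sets the myeloid programme, was not above the filter value on any sham array, so that no fold is given for it. It exceeded that value in 3 of 4 FVB Nx animals at day 2, with values of 2.22 to 3.51, and in 3 of 4 at day 53, with 2.26 to 2.87, and was called higher at both days (limma adjusted p = 2.2e-06 and 0.0491). The call of day 53 was lost with 1 median for all arrays (adjusted p = 0.288), over only the arrays of the comparison (adjusted p = 0.0699) and with mouse number as a block (adjusted p = 0.0506). In the other Nx groups at most 2 animals exceeded the filter value for Spi1. Cebpa, a myeloid and tubular factor, was the 1 gene called lower, by -0.81 in FVB at day 53, and its strain difference there was -1.30 (SE 0.38, limma adjusted p = 0.0087). The call of the surgery contrast was lost over only the arrays of the comparison (adjusted p = 0.0613) and without the arrays with pancreatic transcripts (-0.63, adjusted p = 0.312).

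Signalling proteins below the receptor were called higher most often at day 2 and, in FVB, at day 53. Of 14 listed, 12 were measured, of which 10, 2 and 10 were called higher in FVB at days 2, 28 and 53, and 7, 3 and 1 in B6. Of all genes 24.8%, 7.35% and 25.9% were called higher in FVB and 20.2%, 9.85% and 8.03% in B6, so that the B6 count of day 53 was near the share over all genes. Of the 12, Pik3cg and Syk were not above the filter value on any sham array. Their median differences were 0.86, 0.13 and 0.73 in FVB and 0.52, 0.36 and 0.18 in B6. Tyrobp, the adaptor DAP12, rose in all 6, by 3.94, 2.59 and 3.87 and by 2.78, 2.52 and 2.08. Plcg2, a phospholipase, rose by 0.42 and 0.40 in FVB at days 2 and 53, calls that were lost with 1 median for all arrays (limma adjusted p = 0.0850 and 0.0991). Over only the arrays of the comparison and without the arrays with pancreatic transcripts the day 53 call was lost as well (adjusted p = 0.0851 and 0.407). Pik3cd, a leukocyte phosphoinositide kinase, was within 0.15 of sham in all 6 and was not called. At day 28 in B6 the count was 1 without mouse 3, 1 over only the arrays of the comparison, 5 with mouse number as a block and 7 with the pancreatic mean as a covariate. It was higher without the arrays with pancreatic transcripts, which left 1 Nx animal. With 1 median for all arrays the count was 8 in FVB at day 2 and 8 at day 53, with 1 called lower. These other fits have no share over all genes beside them.

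The other colony stimulating factors and their receptors moved in both directions. Of 10 listed, 7 were measured, and Csf2 and Csf3, the ligands GM-CSF and G-CSF, did not pass the filter. In FVB 4, 1 and 3 were called higher at days 2, 28 and 53 and 2, 1 and 0 lower, and in B6 3, 2 and 1 were called higher and 1, 2 and 0 lower. Of all genes 24.8%, 7.35% and 25.9% were called higher in FVB and 30.0%, 8.81% and 27.8% lower, and in B6 20.2%, 9.85% and 8.03% higher and 24.4%, 9.14% and 6.68% lower. The members called lower were Kit, the stem cell factor receptor, by -0.48 and -0.38 in FVB at days 2 and 28 and -0.40 in B6 at day 28, and Kitl, its ligand, by -0.24 in FVB at day 2 and -0.31 and -0.36 in B6 at days 2 and 28. Over only the arrays of the comparison the calls of both genes at day 28 and that of Kitl in FVB at day 2 were lost, and none of the 7 was called in B6 at day 28. Csf2rb, the shared beta chain of the GM-CSF, IL-3 and IL-5 receptors, rose in all 6 comparisons, by 4.66, 2.84 and 4.38 in FVB and 3.28, 2.73 and 1.88 in B6. Csf2ra, the GM-CSF alpha chain, rose by 2.24 and 1.75 in FVB at days 2 and 53 and by 1.37 and 1.14 in B6 at days 2 and 28. Csf3r, the G-CSF receptor of neutrophils, was not above the filter value on any sham array and was above it on all 4 Nx arrays of day 2 in each strain. It was called there, at least 1.42-fold higher in FVB (limma adjusted p = 5.98e-05) and at least 1.26-fold in B6 (adjusted p = 0.00504), bounds against the filter value. Both calls were lost over only the arrays of the comparison (adjusted p = 0.0640 and 0.0539), and that of B6 with 1 median for all arrays (adjusted p = 0.0783). Both day 53 strain differences of the GM-CSF receptor chains passed the test, with 2.50 for Csf2rb (SE 0.64, limma adjusted p = 0.00284) and 1.26 for Csf2ra (SE 0.33, adjusted p = 0.00327).

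**Figure D5:**
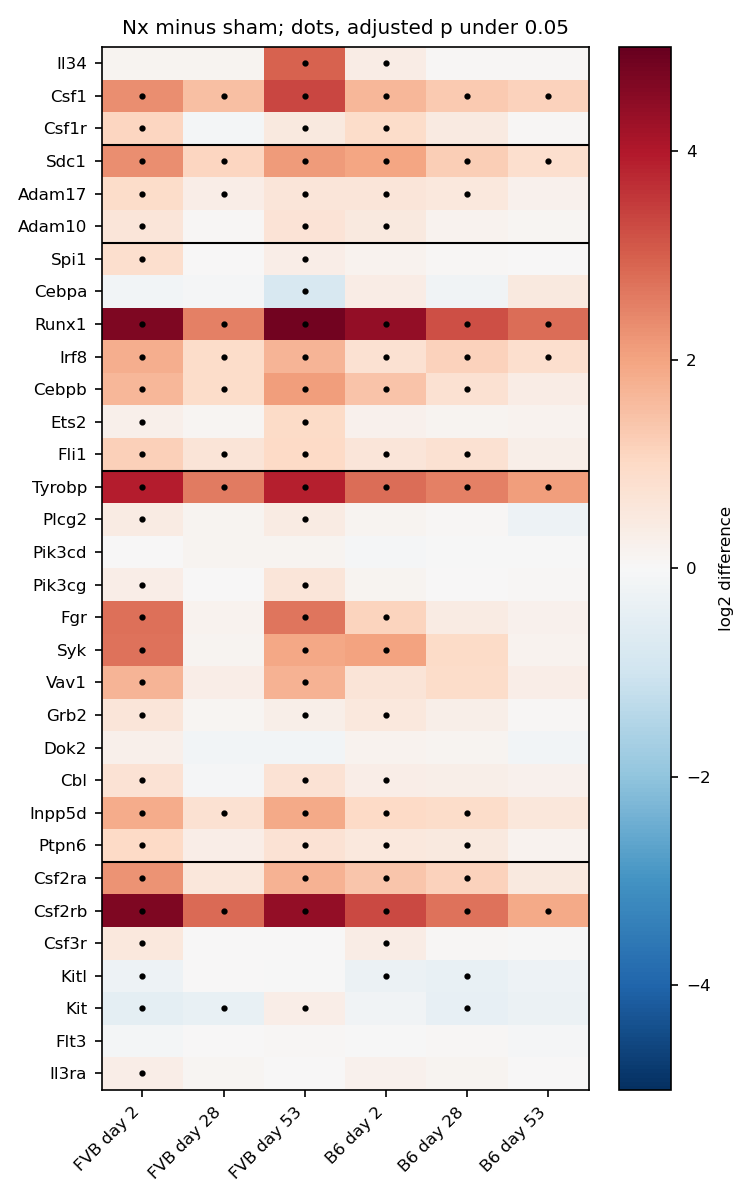
Nx minus sham (colour, log2, limited to 5 in either direction) in the 6 strain and day comparisons (columns) for Il34, Csf1, Csf1r and the measured genes of the 4 pathway lists (rows, lists divided by lines); dots mark an adjusted p under 0.05, and colours of Il34, Spi1, Pik3cg, Syk and Csf3r are against sham values not above the filter. Csf1, Sdc1, Runx1, Irf8, Tyrobp and Csf2rb carry a dot in all 6 columns and Il34 in FVB day 53 and B6 day 2.

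The genes whose pattern over the 48 arrays was most like each of the 3 were named by Pearson's r, which rests mainly on the differences between the 12 groups. For Il34 they were Mybpc2, a myosin-binding protein (r = 0.94), Plcxd3, a phospholipase C domain protein (0.92), Cyp4a12a, a fatty acid omega-hydroxylase (0.92), and Hpcal4, a neuronal calcium sensor (0.91). Mybpc2 had a mean of 6.37 ± 0.69 (SD, n = 4) in FVB Nx at day 53 and 2.20 ± 0.01 in B6 Nx at day 53. Its highest mean, like that of Il34, was thus in FVB Nx at day 53. It also stood above its sham level of 2.20 in FVB Nx (3.09 ± 0.49) and B6 Nx (2.37 ± 0.14) at day 2. Cyp4a12a had 5.73 ± 0.75 in FVB Nx and 2.70 ± 0.42 in B6 Nx at day 53. For Csf1 they were Ywhah, a 14-3-3 protein, Icam1 and Vcam1, adhesion molecules for leukocytes, and Cd14, a co-receptor for bacterial lipopolysaccharide, all with r = 0.96. Within the 24 Nx arrays r was 0.94 to 0.96 for these 4, and within the 24 sham arrays 0.36 to 0.53. For Csf1r they were Cd300a, an inhibitory receptor of myeloid cells (r = 0.92), Tlr7, an endosomal RNA sensor (0.91), Emilin2, a matrix glycoprotein (0.91), and Cxcr4, a chemokine receptor (0.90). Within the Nx arrays r was 0.93 to 0.97, and within the sham arrays -0.29 to 0.32. The sham group means of these 4 genes lay between 2.20 and 2.70, near the filter value of 2.28, so their sham r is not read as a result. Vcam1 is also a gene of the injured tubule list and Cd14 of the macrophage list.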

How the data were processed

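Whole-kidney RNA of 48 mice was hybridised to Affymetrix mouse arrays, 4 per group of strain, surgery and day. The deposited values of 45101 probe sets are on a log2 scale, as judged from their range (up to 16.18). MAS5 is named in the submitters' processing notes with no role, and background correction, summarisation and normalisation by the authors are not given in the sources used here. Array medians lay between 3.17 and 3.44, no arrays were identical, and values were used as deposited, without pseudocount. The number of arrays, 4 per group, limits the precision.

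Probe sets with 1 gene symbol in the platform annotation (34945; 932 had several and 9211 were not listed; 64 controls left out) were kept when at least 4 arrays exceeded the 40th percentile of all values (2.28), and each gene was read from its kept probe set of highest mean, which gave 13174 genes. limma 3.58.1 in R 4.3.3 fitted a mean for each of 12 groups over 48 arrays (36 residual degrees of freedom), with eBayes and an intensity trend. The 14 contrasts were two-sided and adjusted by Benjamini-Hochberg, with 0.05 as threshold. The fit was tested on simulated data. Python 3.11.15 with numpy 2.4.6, pandas 2.3.3 and matplotlib 3.10.9 handled the tables and the plots.

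The animals of a group carry separate mouse numbers in the labels. Nx and sham animals that share a number are not stated to be related: deviations from the group means of 10 same-numbered pairs correlated between -0.25 and 0.38, 5 of them over 0.1, and the arrays were treated as unpaired.

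The 3 genes and the lists were chosen with earlier results of these data known. Named genes are Il34, Csf1 and Csf1r, the first 3 measured genes of each list, and for each of the 3 genes the 4 named genes of highest correlation over 48 arrays; Mertk, Kit, Kitl, Pik3cg, Syk and, in a plot caption, Irf8 were named after their values were seen. Alternatives were other scalings, filters, probe sets, array weights, no trend, the arrays of a comparison alone, mouse number as a block, arrays without pancreatic transcripts and each array left out. The pancreatic mean as a covariate, and list counts without B6 Nx mouse 3 of day 28, were chosen after seeing the data.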

Additional observations from a re-analysis of the deposited data

Results flagged for a closer look

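Of the 25 groups whose 4 animals all exceeded the filter value, which include 1 group of Il34, a single animal stood apart from the other 3 in 1, where chance gives about 1 in 20 groups. This was Csf1 in FVB Nx mouse 7 at day 53 (9.06, the others 10.14 to 10.28). The animal had the highest pancreatic mean of its group (14.13), and without it the Csf1 difference was 3.64. The part of the pancreatic transcripts in its Csf1 value was not tested.

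The Nx effect differed between the strains at day 53 for Il34, by 2.89 (limma adjusted p = 5.17e-17), and for Csf1, by 2.22 (adjusted p = 9.81e-06), with FVB higher for both. Within FVB it differed between days: for Csf1r the change from day 2 to day 28 was -1.17 (adjusted p = 0.000587), and from day 28 to day 53 it rose by 2.81 for Il34 (adjusted p = 1.52e-16) and by 1.86 for Csf1 (adjusted p = 0.000127). Both Il34 tests were made against sham values at the floor.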

How the results depend on the processing

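The 4 animals per group limit every value, Il34 had no measured sham level to set its changes against, and arrays with pancreatic transcripts were most of the Nx arrays. All 42 differences of Il34, Csf1 and Csf1r kept their direction and side of the threshold under quantile normalisation, without the filter, without the intensity trend and with the pancreatic mean as a covariate. The stricter filter dropped Il34, so no value of it was had there, and changed no call of the other genes. Shifting each array to 1 median moved the median of all genes by -0.17 to 0.12 and turned the sign of 2 uncalled differences, Il34 in FVB at day 2 (-0.052) and in B6 at day 28 (-0.028).

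With mouse number as a replicate block (consensus correlation 0.13) the Il34 difference in FVB at day 53 was 2.96 and that of Csf1 3.35, and no call of the 42 differences changed. Among the list counts the block moved that of the transcription factors in FVB at day 53 from 6 to 5, of the signalling genes in B6 at day 28 from 3 to 5 and of the injured tubule genes in FVB at day 2 from 8 to 9.

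Differences are log2, Nx minus sham or changes of it. Csf1r in FVB at day 53 lost its call with 1 median (0.32), with 1423593_a_at (0.43) and without the arrays with pancreatic transcripts (0.042). Il34 in B6 at day 2 lost its call over only the arrays of the comparison (0.39). Without the pancreatic arrays the calls gained were Il34 in B6 at day 28 (0.077), its strain difference at day 2 (-0.64) and its B6 change to day 28 (-0.60), Csf1r in B6 at day 28 (1.15), its strain difference at day 28 (-1.28) and its B6 change to day 53 (-1.16). The sign turned for the Il34 strain difference at day 28 (-0.076) and its B6 change to day 53 (-0.074), each with a call gained. In that reduced set 7 of the 42 differences turned sign in all, the others uncalled, among them Csf1r in B6 at day 53 (-0.014). These rest on 1 or 2 Nx animals a group. The Nx animals left had Il34 of 2.28 in B6 at day 28 and 2.21 in FVB at day 28 and in B6 at day 53. The Il34 call of B6 at day 28 and both turned Il34 signs thus come from values at or near the filter value. They are not read as changes. Array weights called the B6 changes to day 28 of Il34 (-0.43) and Csf1r (-0.67). The FVB change of Csf1r to day 53 was called with array weights (0.58), over only the arrays of the comparison (0.58) and with 1419873_s_at (0.74).

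Of the other Csf1 probe sets, 1448914_a_at lost the calls in FVB at day 28 (0.40) and B6 at days 28 (0.43) and 53 (0.43) and gained that of the FVB change to day 28 (-0.93). 1425155_x_at lost FVB days 2 (0.18) and 28 (0.10) and B6 days 2 (0.031), 28 (0.20) and 53 (0.073). 1425154_a_at lost FVB days 28 (0.035) and 53 (0.12), B6 days 2 (0.085), 28 (0) and 53 (0), the strain difference at day 53 (0.12) and the FVB change to day 53 (0.083), and turned sign in FVB at day 2 (-0.0030).

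With each array left out in turn, Csf1r in FVB at day 53 ranged from 0.38 to 0.63, its call lost without Nx mouse 8. Calls were gained for the B6 change to day 28 of Il34 (-0.47 to -0.25, without B6 Nx mouse 9 of day 2) and Csf1r (-0.73 to -0.36, without that animal or Nx mouse 3 of day 28), for the FVB change of Csf1 to day 28 (-1.005 to -0.66, without Nx mouse 7 of day 28 or sham mouse 4 of day 2), for Csf1r in B6 at day 28 (0.19 to 0.53, without Nx mouse 4 or 9) and for its FVB change to day 53 (0.47 to 0.73, without Nx mouse 10 of day 53). The causes were not tested.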

Other observations

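Genes of the kidney's own epithelium were mostly called lower where they were called at day 2 and day 53. Of 5 proximal tubule genes, 4 were called lower at day 2 in both strains and 4 in FVB at day 53, beside 30.0% of all genes in FVB and 24.4% in B6 at day 2 and 27.8% in FVB at day 53. In B6 at day 53, 2 were called lower and 1 higher, beside 6.68% and 8.03% of all genes. At day 28, 1 was called higher in each strain, beside 7.35% of all genes in FVB and 9.85% in B6. At that day 1 was called lower in FVB and 3 in B6, beside 8.81% and 9.14%. At day 53 Slc34a1, the phosphate transporter, fell by 1.07 in FVB on the log2 scale and had -0.05 in B6. Lrp2 and Cubn, the receptors megalin and cubilin that take up filtered protein, were 2.82-fold and 2.35-fold lower in FVB. In B6 Lrp2 was 1.33-fold lower and Cubn had a log2 difference of -0.20. Of 5 genes of the distal nephron and collecting duct, 4 were called lower in FVB at day 53 and 2 in B6, where 6.68% of all genes were. Umod, which encodes uromodulin, fell by 0.33 in FVB and had -0.15 in B6, Slc12a1, the loop cotransporter, fell by 1.17 and 0.43, and Slc12a3, the thiazide-sensitive cotransporter, fell by 3.02 in FVB and had -0.37 in B6. Of 3 podocyte genes, Nphs1, which encodes nephrin, fell by 2.12 in FVB and had -0.37 in B6, Podxl, podocalyxin, fell by 1.51 and 0.61, and Synpo, synaptopodin, had 0.13 and -0.11.

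Of 4 mesenchymal genes, all were called higher in FVB at days 2 and 53, beside 24.8% and 25.9% of all genes, and 3 at each day in B6, beside 20.2%, 9.85% and 8.03%. In FVB at day 28 it was 3, beside 7.35%, and lower without the arrays with pancreatic transcripts, which left 1 Nx animal. Col1a1, a chain of type I collagen, rose by 5.93 in FVB and 3.34 in B6 at day 53, Pdgfrb, a pericyte receptor, by 1.55 and 0.51, and Acta2, smooth muscle actin, by 1.46 and 0.83. The B6 calls of Pdgfrb and of the endothelial gene Cdh5 were lost over only the arrays of the comparison and without the arrays with pancreatic transcripts, and the FVB call of Cdh5 with 1 median for all arrays. Among endothelial genes at day 53, Cdh5, VE-cadherin, rose by 0.41 and 0.43, Kdr, a VEGF receptor, fell by 1.11 in FVB and had -0.30 in B6, and Pecam1 had -0.09 and 0.29. Among dendritic cell genes at day 53, Cd209a, a lectin not above the filter value on any sham array, was at least 4.29-fold higher in FVB and 2.17-fold in B6, the latter not called over only the arrays of the comparison (limma adjusted p = 0.0688). Itgax had 1.37 and 0.92, and Zbtb46 had 0.24 and -0.25. The lymphocyte gene Cd8a had -0.03 and 0.00.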
